A study of Mus musculus with 2 samples.

Results

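Droplet single-cell RNA sequencing of the mouse aorta held 529 barcodes that carried a combination of Penk, Mmp13, Prg4, Mme and Wif1, among 29190 barcodes kept as cells. These barcodes are called the members below. A barcode was a member when it held 1500 or more unique molecular identifiers (UMIs, 1 per captured transcript) and 700 or more genes, with at most 20% mitochondrial UMIs and 40 or more Dcn UMIs per 10000. It also needed UMIs of 3 or more of the 5 genes Penk, Mmp13, Prg4, Mme and Wif1, and UMIs of at most 2 genes of each of 3 other fibroblast sets, which are Inmt, Hsd11b1, Dpep1, Abca8a and Hhip, then Opcml, Pcsk6, Cd55, Pla1a and Adgrd1, then Saa3, Cxcl14, Lbp, Il33 and Chl1. The rule was written from groups found earlier in the same cells, so the members were chosen by measured values of these genes, and every comparison of members with other cells is a description and carries no test.

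Both samples were aortas of ApoE-/- mice, which lack apolipoprotein E and develop atherosclerosis, at 20 weeks of age. One sample is labelled MSC_ITGB3 and the other HFD, and the series text describes a survey of aortic cells in HFD-fed mice that were or were not treated with MSC_ITGB3. Sex, the number of animals pooled and the nature of the treated cells are not given in the labels. The counts form 2 libraries, called library 1 and library 2, and no label ties either library to a sample, so MSC_ITGB3 was not compared with HFD. Pairs of values are for library 1 and then library 2.

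Penk encodes proenkephalin, the precursor that is cut into the opioid peptides enkephalins, and Mme encodes neprilysin, a peptidase of the cell surface that degrades enkephalins and other small peptides. Prg4 encodes lubricin, the lubricant of joint and tendon surfaces, and Mmp13 encodes collagenase 3, which cuts fibrillar collagens and above all type II collagen of cartilage. Wif1 is a secreted protein that binds Wnt ligands and blocks their signal. Cthrc1, a secreted protein of activated fibroblasts, was named with these genes when the population was proposed but is not in the rule. Fibroblasts of the aorta lie mainly in the outer coat, the adventitia, and in plaques, and make collagens and proteoglycans such as decorin, the product of Dcn.

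Promoter windows of the rule genes Mmp13, Wif1 and Mme are shown because the rule genes choose the members. The windows run from 250 bases before to 50 bases after the transcription start of RefSeq (GRCm38.p6), all on the plus strand. The set of windows used here had none for Penk and Prg4. For Mme, 1 of 3 windows is shown, chosen because its match lies nearest to the start. A second window overlaps it and holds the same match at -215, and the other window has none. Capitals mark matches to 2 motifs searched on both strands, TGANTCA (bound by AP-1 factors) and TGTGGT (bound by RUNX factors, and read as its reverse complement in the Mmp13 window). Another motif, TGACGTCA (CRE), was searched and had no match in these windows.
Mmp13, chr9:7272264-7272563: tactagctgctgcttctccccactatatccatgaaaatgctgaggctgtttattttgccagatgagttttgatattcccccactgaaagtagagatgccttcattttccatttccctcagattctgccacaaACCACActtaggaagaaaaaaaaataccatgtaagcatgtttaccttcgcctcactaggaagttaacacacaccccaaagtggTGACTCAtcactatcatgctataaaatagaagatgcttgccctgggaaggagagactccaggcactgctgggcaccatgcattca
Mme, chr3:63295622-63295921: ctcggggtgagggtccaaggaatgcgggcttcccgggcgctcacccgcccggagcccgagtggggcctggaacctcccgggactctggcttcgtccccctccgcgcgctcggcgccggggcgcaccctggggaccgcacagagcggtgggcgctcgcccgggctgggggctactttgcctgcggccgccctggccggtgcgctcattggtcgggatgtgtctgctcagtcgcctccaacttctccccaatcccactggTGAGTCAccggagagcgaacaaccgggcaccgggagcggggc
Wif1, chr10:121033754-121034053: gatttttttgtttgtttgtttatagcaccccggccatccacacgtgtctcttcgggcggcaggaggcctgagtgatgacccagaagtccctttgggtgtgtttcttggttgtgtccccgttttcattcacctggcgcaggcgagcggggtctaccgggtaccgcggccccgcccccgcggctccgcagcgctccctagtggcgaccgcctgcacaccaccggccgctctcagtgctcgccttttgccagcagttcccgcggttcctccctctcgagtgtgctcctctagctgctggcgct
With the transcription start counted as base 0, the AP-1 match lies at -35 and the RUNX match at -118 in the Mmp13 window, and the AP-1 match lies at 8 in the Mme window. The Wif1 window held none of the 3 motifs. Over all 32851 mouse windows of this length, 7.81% held the AP-1 motif, 16.8% the RUNX motif and 1.79% the CRE motif, and a match is a description of letters only.

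In library 1 there were 151 members and in library 2 there were 378. They made up 2.71% (95% exact binomial interval 2.3 to 3.18) and 4.22% (3.82 to 4.66) of the 5564 and 8952 barcodes past the Dcn minimum, which are called Dcn-high. Members were deep, above all in library 1, with a median of 17792 and 3247 UMIs, against 2793 and 2301 UMIs in the other Dcn-high barcodes. Among Dcn-high barcodes of 10000 or more UMIs, called deep here, members made up 8.62% (7.01 to 10.5) and 12.3% (10.1 to 14.9). After every barcode was thinned to 1500 UMIs, members were 0.484% and 2.1% of Dcn-high barcodes. The share therefore depends on depth. No member barcode sequence was a member in both libraries, and 3 were also kept in the other library. Intervals here and below cover counting error only, since cells of 1 library share their source.

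The 5 rule genes did not contribute alike. Prg4 was found in 91.4% and 97.9% of members, Wif1 in 90.7% and 81.5%, Penk in 71.5% and 78.3%, and Mme in 47.7% and 47.9%. Mmp13 was found in a minority, 31 of 151 members (20.5%) and 110 of 378 members (29.1%), so the label names a gene that most members did not show at their depth. The commonest combination was Penk with Prg4 and Wif1 alone, in 54 and 127 members, and 1 and 14 members held all 5 genes. In barcodes with 3 or more macrophage markers and Dcn under the minimum, a class that should lack these genes, Penk was found in 3.04% and 8.42%, Mmp13 in 3.41% and 3.25%, Prg4 in 13.1% and 16.7%, Mme in 0.558% and 1.1%, and Wif1 in 3.97% and 4.57%, at median depths of 3157 and 2545.5 UMIs. Of those macrophage-marked barcodes, 0.248% and 1.1% held 3 or more of the 5 genes.

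Levels are given as CPM, the usual scale for the share of a gene in all UMIs of a group of barcodes. Free RNA is read from 65270 and 39379 barcodes of 10 to 100 UMIs. Penk (chromosome 4, 4133531 to 4138819 of GRCm38) stood at 1761 and 829 CPM in members, against 107 and 106 CPM in the other Dcn-high barcodes and 76.4 and 111 CPM in free RNA. A single member held 21.1% of the members' Penk UMIs in library 1, against 4.18% in library 2. Penk was therefore unevenly spread, with a median of 2.91 and 5.45 and a maximum of 381 and 70.6 UMIs per 10000 in single members.

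Prg4 (chromosome 1, 150449412 to 150466165) stood at 816 and 2265 CPM in members, against 428 and 512 CPM in the other Dcn-high barcodes and 139 and 273 CPM in free RNA. Its ratio, 1.9 and 4.42, was the smallest of the 5 in both libraries, and Prg4 was also present at 677 and 886 CPM in barcodes of the Saa3 set. Mme (chromosome 3, 63241537 to 63386030) stood at 86.4 and 124 CPM in members, against 9.82 and 13.0 CPM in the other Dcn-high barcodes. Wif1 (chromosome 10, 121033960 to 121100650) stood at 201 and 304 CPM in members, against 26.4 and 41.9 CPM in the other Dcn-high barcodes. Mmp13 (chromosome 9, 7272514 to 7283331) stood at 181 and 189 CPM in members, against 10.2 and 38.1 CPM in the other Dcn-high barcodes, and 1 member held 28.3% and 30.9% of the Mmp13 UMIs of each library. These 5 differences are fixed by the rule.

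Dcn, for which the rule sets a minimum in both groups, stood at 11928 and 9311 CPM in members, against 10627 and 9324 CPM in the other Dcn-high barcodes. Genes that the rule keeps low were low, with the stromal dipeptidase Dpep1 at 4.27 and 21.3 CPM in members, against 250.1 and 254 CPM in the other Dcn-high barcodes, and the adhesion protein Opcml at 5.58 and 3.17 CPM against 110.1 and 54.2 CPM. The acute-phase protein Saa3 kept 267 and 74.7 CPM in members, against 784 and 297 CPM. Cxcl14, a chemokine, did not follow its set in library 2, at 48.3 and 169 CPM in members, against 61.2 and 72.4 CPM. Among Dcn-high barcodes with 3 or more of the 5 genes, 43 in library 1 (22.2% of them) and 89 in library 2 were left out for holding 3 or more genes of another set.

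**Figure D1:**
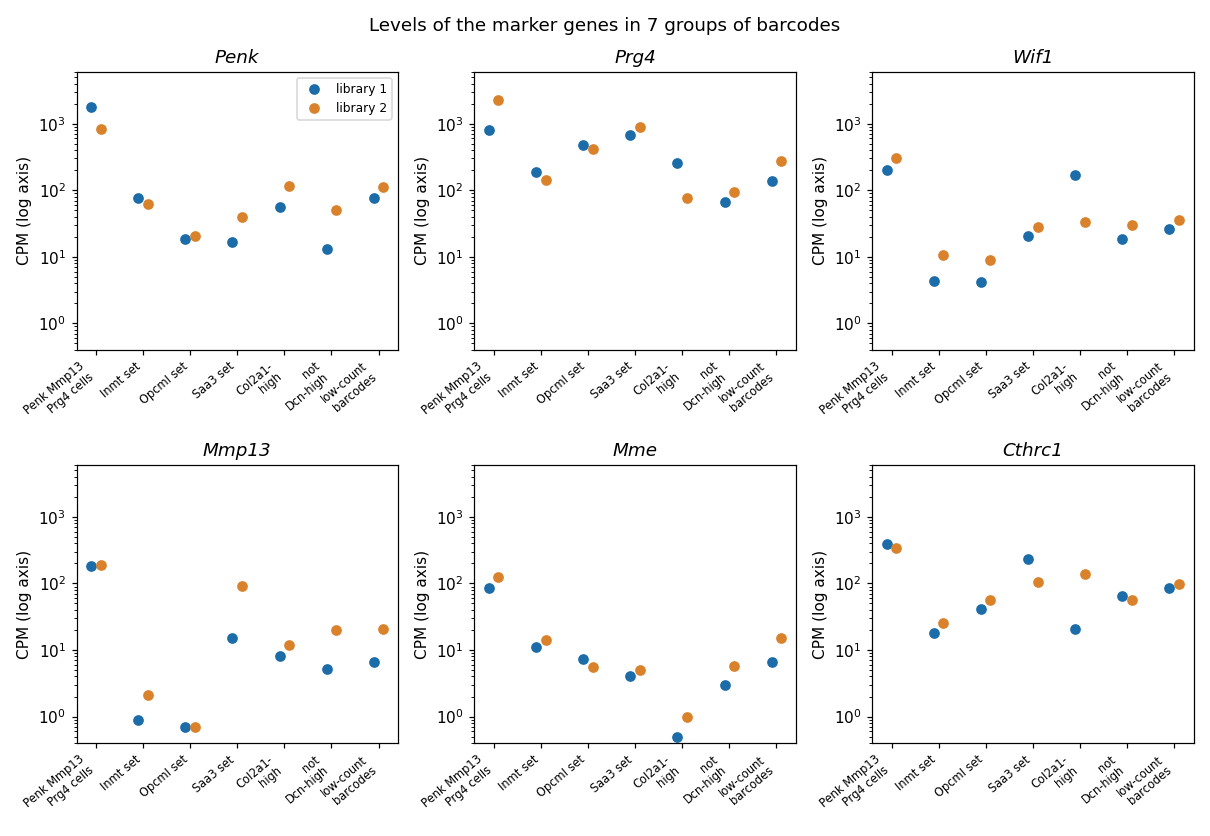
Levels of Penk, Prg4, Wif1, Mmp13, Mme and Cthrc1 (vertical axes, CPM of summed UMIs, log axes) in 7 groups of barcodes along the horizontal axes, which are the members, the Inmt, Opcml and Saa3 sets, Col2a1-high barcodes, barcodes that are not Dcn-high and the low-count barcodes read as free RNA, with 1 point per library. A level of 0 (Mme in Col2a1-high barcodes of library 1) is drawn at 0.5, the members stand highest for all 6 genes, and for the 5 rule genes that is fixed by the rule.

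Among Dcn-high barcodes with at most 2 genes of every other set, the levels of Ecrg4, Ank and Pi16 already changed by steps below the threshold. They went on changing the same way across it. Cthrc1 and Comp rose by a larger fold than Ecrg4 and Ank in library 1, from 117 to 358 CPM and from 285 to 933 CPM between 2 and 3 rule genes. In library 2 they went from 238 to 287 CPM and from 552 to 967 CPM. In library 1, 119 barcodes just inside with 3 rule genes held Ecrg4 at 2190.1 CPM and Ank at 528 CPM, against 1375 and 269 CPM in 397 barcodes just outside with 2 rule genes. In library 2, 261 barcodes just inside held Ecrg4 at 1755 CPM and Ank at 668 CPM, against 1009.8 and 347 CPM in 848 barcodes just outside. Ecrg4 encodes the precursor of the secreted peptide augurin, and Ank encodes a membrane protein that exports pyrophosphate, an inhibitor of mineral. The adventitial gene Pi16 ran the other way, at 28 and 75.8 CPM just inside, against 98.7 and 146 CPM just outside. Median depth moved along with the count in library 1, at 12275 UMIs inside against 3563 UMIs outside, and less in library 2, at 2941 against 2512.5 UMIs. Col2a1 was lower with 4 rule genes than with 3 in both libraries, at 1893 CPM with 3 and 953 CPM with 4 in library 1, and at 7176 CPM with 3, 2853 CPM with 4 and 372 CPM with all 5 in library 2. With none of the 5 genes, barcodes of library 1 and library 2 held Ecrg4 at 302 and 426 CPM and Pi16 at 429 and 406 CPM.

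**Figure D2:**
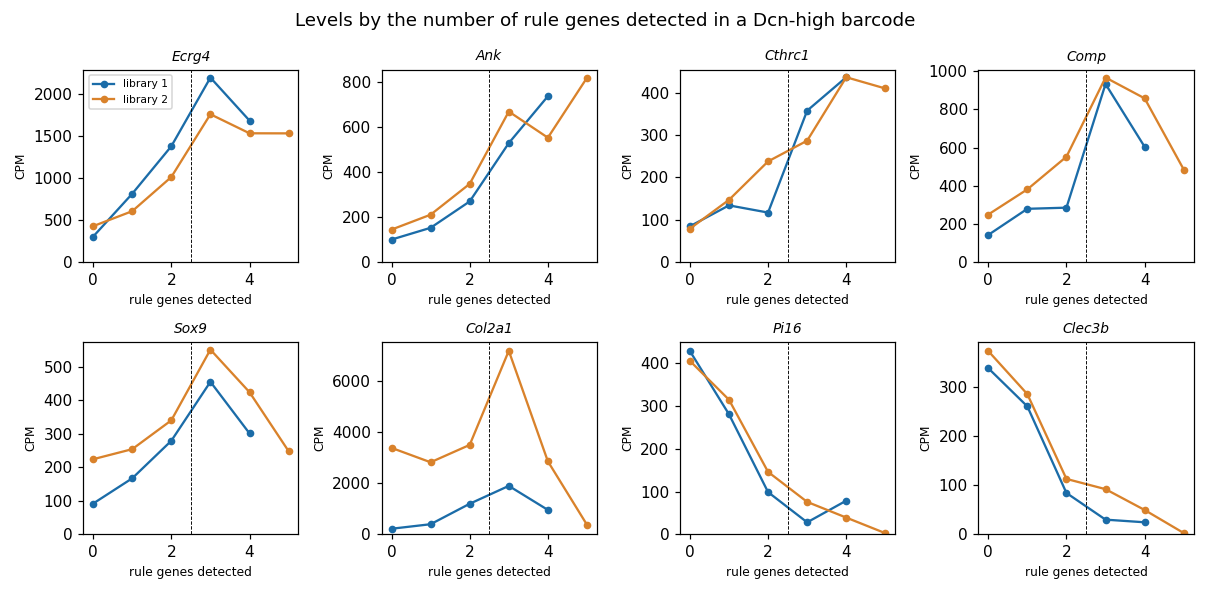
Levels (vertical axes, CPM of summed UMIs) of Ecrg4, Ank, Cthrc1, Comp, Sox9, Col2a1, Pi16 and Clec3b by the number of the 5 rule genes found in a barcode (horizontal axes, 0 to 5), 1 line per library, for Dcn-high barcodes with at most 2 genes of every other set. The dashed line between 2 and 3 genes is the threshold and only groups of 10 or more barcodes are drawn, and at 3 genes the first 6 of these stand above, and Pi16 and Clec3b below, their level at 2 genes in both libraries.

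Among genes outside the rule, those of the cartilage list stood higher in members. Genes of the adventitial, complement and chemokine lists stood lower, as counted below. The rule keeps barcodes rich in genes of the Inmt, Opcml or Saa3 set out of the members. It leaves them among the other Dcn-high barcodes, so genes that go with those sets can be lower in members through that choice. The size of this part was not tested. Among barcodes under the same limit, Pi16 and Clec3b were also lower just inside the threshold than just outside. Of 8834 genes at a mean of 10 CPM or more outside the 21 rule genes, 150 (1.70%) were 2-fold or more higher in members than in the other Dcn-high barcodes in both libraries, and 368 (4.17%) were 2-fold or more lower in both. The median log2 ratio over all these genes was 0.0 and 0.01. In 6 genes the libraries passed 2-fold in opposite directions. Depth differed between the groups, and among deep barcodes alone 119 of 8725 genes (1.36%) were higher and 325 (3.72%) lower in members. All of the 20 genes named as higher and all of the 15 named as lower passed 2-fold the same way in the deep barcodes of both libraries. Deep members held 2834604 of the 3045351 member UMIs in library 1 and 2547366 of 3466281 in library 2. Summed levels of members therefore come mostly from deep members, and on the members' side the deep reading largely repeats the same counts.

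Of the 20 genes named as higher, several encode secreted or extracellular proteins. Ecrg4 (chromosome 1, 43730602 to 43742578) stood at 2057 and 1661 CPM in members, against 511 and 488 CPM in the other Dcn-high barcodes, a ratio of 4.03 (3.91 to 4.15) and 3.41 (3.31 to 3.51). It was found in 85.4% and 86.2% of members, and free RNA held 372 and 487 CPM. Cytl1, a small secreted protein known from cartilage, stood at 3642 and 587 CPM in members, against 683 and 189 CPM in the other Dcn-high barcodes, while free RNA held 1016 and 352 CPM. Comp (chromosome 8, 70373558 to 70382066), a pentameric protein that binds collagens in cartilage and tendon, stood at 822 and 879.9 CPM in members, against 233 and 314 CPM. Leaving out every barcode with 3 or more genes of another cell class, which leaves 28 and 64 members, turned the Comp log2 ratio of library 2 to -0.41, so that direction depends on which barcodes are counted. Chondrocytes are among these classes, so the setting also leaves out every barcode with 3 or more chondrocyte markers.

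Cthrc1 (chromosome 15, 39076932 to 39087121) stood at 398 and 346 CPM in members, against 101 and 116 CPM in the other Dcn-high barcodes, a ratio of 3.93 (3.68 to 4.2) and 2.97 (2.79 to 3.17), and was found in 55.6% and 52.9% of members. Srpx2, a secreted sushi-repeat protein, stood at 155 and 186 CPM against 57.6 and 66.4 CPM. Slpi, an inhibitor of leukocyte elastase, stood at 78.2 and 409.7 CPM in members, against 26.5 and 76.1 CPM. Spink5, which encodes another inhibitor of serine proteases, stood at 62.1 and 77.6 CPM in members, against 9.88 and 15.7 CPM. For both inhibitors a large part came from few cells, since 1 member held 31.9% and 17.8% of the Slpi UMIs and 32.3% and 26.8% of the Spink5 UMIs. Tafa5, a small secreted protein, stood at 90.3 and 57.1 CPM against 15.4 and 21.5 CPM, and Fam180a at 61.7 and 99.8 CPM against 17.3 and 34.9 CPM, with the Fam180a log2 ratio of library 2 at -0.7 without the barcodes of mixed class and at -0.2 after thinning.

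Others of the 20 named genes encode membrane proteins or regulators of the cytoskeleton. Ank (chromosome 15, 27466677 to 27594909) stood at 589 and 649.7 CPM in members, against 116 and 172 CPM in the other Dcn-high barcodes, a ratio of 5.09 (4.81 to 5.38) and 3.78 (3.6 to 3.97), and was found in 81.5% and 70.6% of members. Trpv4, a calcium channel opened by osmotic and mechanical stimuli, stood at 82.1 and 91.7 CPM in members, against 17.1 and 33.3 CPM. The adhesion receptor Adgrg6 stood at 59.1 and 52.5 CPM in members, against 9.91 and 14.5 CPM. Neuritin, a protein anchored to the membrane and encoded by Nrn1, was at 169 and 278 CPM against 50.8 and 91.3 CPM. The partner of lactate transporters embigin, encoded by Emb, was at 159 and 232 CPM against 57.8 and 75.8 CPM, and the adhesion protein Sdk2 at 138 and 166 CPM against 32.1 and 57.4 CPM. Regulators of small GTPases were Tiam2, at 361 and 467 CPM against 99.8 and 169 CPM, and Rap1gap2, at 104 and 92.6 CPM against 29 and 27.1 CPM. The actin-binding proteins Nebl and Baiap2l1 and the gene Nckap5 completed the 20, with ratios of 6.4 and 4.52, 6.69 and 3.15, and 3.51 and 3.36.

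Of the 15 genes named as lower, 6 are in the adventitial list, namely Pi16, Clec3b, Apod, Ccl11, Tmem100 and Scara5. Pi16 (chromosome 17, 29317680 to 29330593), a marker of fibroblasts shared by many tissues, stood at 43.3 and 56.5 CPM in members, against 808 and 573 CPM in the other Dcn-high barcodes and 312 and 326 CPM in free RNA. It was thus 18.6-fold and 10.1-fold lower, at a ratio of 0.0537 (0.0449 to 0.0637) and 0.0987 (0.0853 to 0.114). Clec3b, which encodes tetranectin, stood at 27.9 and 69.2 CPM in members, against 648 and 485 CPM. The terminal complement component C7 stood at 1.97 and 5.77 CPM in members, against 144 and 63.8 CPM. Apod, a lipocalin, stood at 8.54 and 54.5 CPM in members, against 264 and 562 CPM, and the chemokine eotaxin, encoded by Ccl11, at 0.657 and 8.37 CPM against 60.7 and 77.7 CPM.

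Binding proteins of insulin-like growth factors were also low, with Igfbp5 at 81.1 and 89.4 CPM in members, against 715 and 742 CPM, and Igfbp6 at 30.5 and 52.8 CPM against 664 and 419 CPM. Cygb, which encodes cytoglobin, stood at 54.5 and 74.1 CPM in members, against 549 and 492 CPM. The other 7 named genes were Tmem100, the sodium channel Scn7a, the matrix protein Svep1, the ferritin receptor Scara5, complement C2, Cpxm2 and Tmeff2, which were 6.64-fold to 25-fold lower in library 1 and 6.86-fold to 9.27-fold lower in library 2. In all 15 genes the members' level lay below that of free RNA in both libraries.

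**Figure D3:**
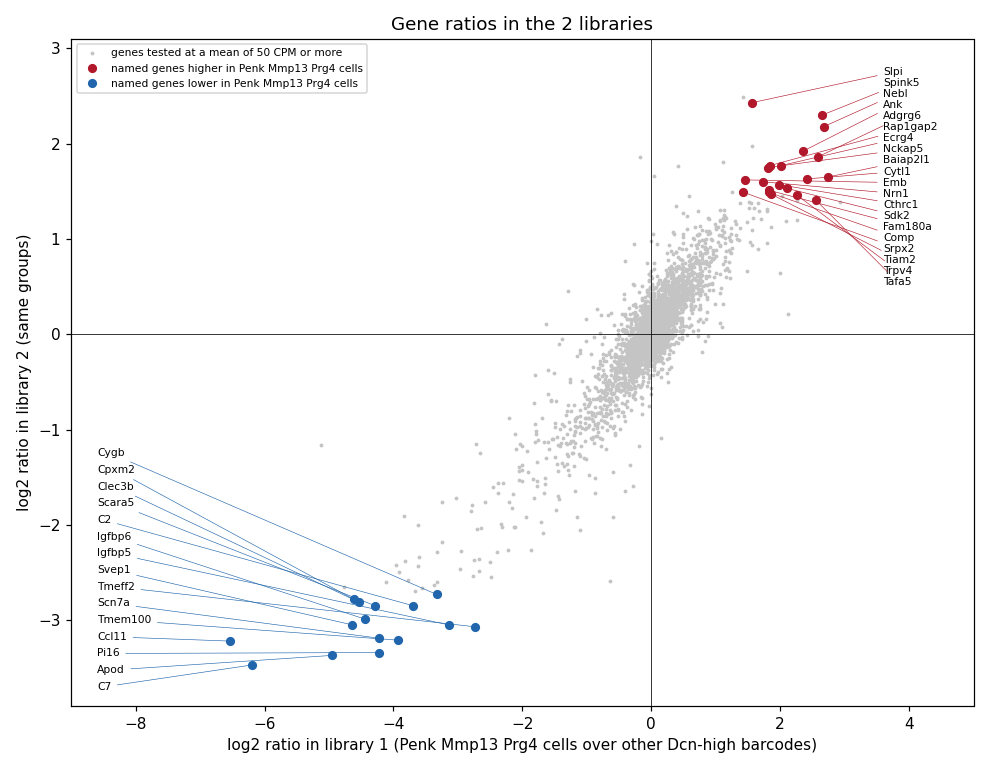
Log2 ratio of CPM, members over other Dcn-high barcodes, in library 1 (horizontal axis) and library 2 (vertical axis), 1 grey point per gene at a mean of 50 CPM or more. Red points are the 20 genes named as higher and blue points the 15 named as lower, and among these coloured points Slpi lies highest in library 2 and Ccl11 and C7 lie farthest to the left in library 1.

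Cartilage genes stood out among the gene lists, which were chosen with earlier results of these data known. Of 20 measured genes of the cartilage list, 11 were higher in members in both libraries and 0 lower, with a median log2 ratio of 1.55 and 1.4, against 1.70% of all genes higher and a median near 0. Col2a1 (chromosome 15, 97975602 to 98004695), the chain of type II collagen, stood at 1604 and 5108 CPM in members, against 335 and 2228 CPM in the other Dcn-high barcodes and 164 and 2198 CPM in free RNA. The chains of its companion type IX collagen followed, Col9a1 at 65.7 and 134 CPM against 8.64 and 51.1 CPM, Col9a2 at 23.6 and 156 CPM against 5.8 and 56.9 CPM, and Col9a3 at 47.3 and 162 CPM against 16 and 41.2 CPM. Sox9 (chromosome 11, 112782224 to 112787760), the master transcription factor of cartilage, stood at 404 and 478 CPM in members, against 124 and 207 CPM, a ratio of 3.24 (3.04 to 3.45) and 2.31 (2.19 to 2.44).

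Its partner Sox6 stood at 145 and 351 CPM in members, against 55.1 and 126 CPM. The type XI chain Col11a2 was at 179 and 349.7 CPM against 37.2 and 132 CPM, and matrilin 4, encoded by Matn4, at 33.5 and 75.9 CPM against 8.33 and 14.7 CPM. Aggrecan, the main cartilage proteoglycan, was close to the limit, with Acan at 440.3 and 743 CPM in members, against 152 and 379 CPM, a ratio of 2.9 and 1.96. How members were picked mattered in library 2, where the list's median log2 ratio was 0.15 after thinning to 1500 UMIs and 0.55 with 4 or more rule genes, and 1.2 in deep barcodes. Of 9 tendon and ligament genes, 4 were higher and 2 lower, namely the tendon transcription factors Scx (15.1 and 21.3 CPM in members, against 5.57 and 9.04 CPM) and Mkx (7.22 and 26.5 CPM against 1.75 and 7.83 CPM), Comp and Cilp2 on the higher side, and Cilp and Tppp3 on the lower. The tendon genes Tnmd and Kera had no UMI in members. Over all genes 1.70% were higher and 4.17% lower.

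Mineral genes pointed both ways. Of 12 measured, 3 were higher and 1 lower, against 1.70% and 4.17% of all genes. Spp1, which encodes the phosphoprotein osteopontin, stood at 13400.1 and 14639.9 CPM in members, against 5375 and 6536 CPM in the other Dcn-high barcodes. Tnfsf11, the osteoclast factor RANKL, stood at 11.2 and 22.2 CPM against 4 and 5.18 CPM. Alpl, an alkaline phosphatase that breaks down pyrophosphate, stood at 1.64 and 11.8 CPM in members, against 14.8 and 29.5 CPM. Mgp, an inhibitor of calcification, was the most abundant of the members' matrix genes described here, at 39184 and 17873 CPM, against 18822 and 16429 CPM, so its ratio of 2.08 in library 1 was not matched by the 1.09 of library 2.

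The main collagen genes of ordinary connective tissue, Col1a1 and Col1a2, did not pass 2-fold. Col1a1 stood at 5377 and 7049.9 CPM in members, against 4471 and 5166 CPM, and Col1a2 at 7106 and 6994 CPM against 5393 and 5156 CPM. Of 11 genes of the fibrillar collagen list, 2 were higher (Col2a1 and Col11a2) and Col5a3 lower, against 1.70% and 4.17% of all genes. In the list of other collagens, which leaves out the type IX chains, 0 of 13 passed either way, while Col25a1 was higher and Col4a4 lower outside the lists. Of 11 small leucine-rich proteoglycans, Chad was higher, Ogn and Podn were lower, and lumican was at 6764 and 8057 CPM for Lum, against 3939.9 and 4060.2 CPM. Fn1, which encodes fibronectin, stood at 7779 and 9196 CPM in members, against 4129.5 and 4412 CPM, a ratio of 1.88 and 2.08. In the matricellular list 3 of 19 were higher (Spp1, Comp and Cthrc1) and 2 lower (Tnxb and Sparcl1).

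Elastic fibre genes had 1 of 16 higher and 7 lower, against 1.70% and 4.17% of all genes. Eln, the elastin gene, stood at 360.2 and 287 CPM in members, against 817 and 902 CPM, and the microfibril gene Mfap5 at 79.8 and 94.3 CPM against 1009.6 and 607 CPM. The exception was Ltbp2, at 744 and 830 CPM in members, against 356 and 364 CPM.

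Among proteases, stromelysin 1, which can activate procollagenases, accompanied Mmp13. Mmp3 stood at 2198 and 2905 CPM in members, against 1019 and 1321 CPM in the other Dcn-high barcodes, a ratio of 2.16 and 2.2, and of 6 measured genes of the metalloproteinase list it was higher and Mmp23 lower. Mmp28, which is not in the list, was also higher. The gelatinase Mmp2 stood at 783 and 783 CPM in members, against 537 and 542 CPM, and the inhibitor Timp1 at 1888 and 1819 CPM against 1366 and 1258 CPM. Of 17 Adamts and other matrix proteases, 0 were higher and 5 lower (Adamts2, Adamts5, Adamts15, Adamtsl1 and Plat), against 1.70% and 4.17% of all genes. The aggrecanase Adamts5 stood at 72.2 and 78.8 CPM in members, against 187 and 168 CPM.

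Signalling genes around the rule genes were examined next. Of 9 measured opioid genes outside the rule, 0 were higher and 1 was lower, the convertase Pcsk5. Cpe, the carboxypeptidase that trims enkephalins, stood at 357 and 318 CPM in members, against 268 and 338 CPM, and the opioid receptors Oprm1 and Oprd1 had no UMI in members. Among 8 Wnt antagonists other than Wif1, Frzb was higher at 539.8 and 616 CPM in members, against 251 and 301 CPM, while Sfrp4 was lower at 92.9 and 150.3 CPM against 878 and 510.1 CPM. Of 12 Wnt ligands and receptors in the list, the receptor Fzd8 was higher and the ligand Wnt5a lower, which stood at 3.94 and 7.79 CPM in members, against 47.7 and 44.3 CPM. The receptor Fzd9, which is not in the list, was also higher. Of 15 TGF-beta genes, Inhba, the activin A subunit, was higher at 251 and 247 CPM against 80 and 95 CPM, as was Ltbp2. Insulin-like growth factor genes had 4 of 9 lower, Igf1 among them at 24.3 and 29.7 CPM in members, against 163 and 154 CPM. Of 22 BMP genes 0 were higher and 2 lower. These counts are read against 1.70% of all genes higher and 4.17% lower, and counts of 1 or 2 genes do not set a list apart.

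In a list of stromal and positional transcription factors, 3 of 42 were higher and 6 lower, against 1.70% and 4.17% of all genes. The higher ones in the list were Sox9, Gata2 at 35.8 and 41 CPM in members, against 9.96 and 8.75 CPM, and Gata3 at 17.4 and 28 CPM against 6.25 and 8.98 CPM. Ebf2 was lower, at 2.63 and 7.5 CPM in members, against 50.6 and 45.3 CPM, together with Osr1, Meox2, Foxp2, Zfhx4 and Nr2f2. Of 16 channel and transporter genes, 3 were higher and 4 lower. The mechanically gated channel Piezo1 was higher, at 121 and 93.2 CPM in members, against 49.2 and 40.9 CPM, next to Trpv4 and the phosphate transporter Slc20a1. Kcnj8, Kcnt2, Slc1a3 and Slc7a11 were lower. Of 14 integrins in the list, Itga6 was higher, and Itgb4, which is not in the list, was higher too. Itgb3, whose symbol appears in a sample label, stood at 15.8 and 22.2 CPM in members, against 17.3 and 22.3 CPM.

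Lower lists were led by the adventitial genes, 14 of 20 lower and 0 higher with a median log2 ratio of -2.82 and -1.94, against 4.17% of all genes lower. Beyond Pi16 and Clec3b, the list held the matrix protein gene Dpt, at 127 and 106 CPM in members, against 664 and 515 CPM, and Gsn, at 1289 and 1121 CPM against 4040.1 and 3181 CPM. Complement had 11 of 15 lower and 0 higher. C3 stood at 623 and 618 CPM in members, against 1905 and 1357 CPM, and the regulator Serping1 at 151 and 205 CPM against 1562 and 1266 CPM. The lower complement genes include C1qa, C1qb and C1qc, which macrophages make. Differences in the adventitial, complement and chemokine lists can come in part from the rule's limit on the other fibroblast sets, which was not tested. Chemokines had 7 of 12 lower, with Ccl2 at 151 and 84.5 CPM in members, against 851 and 444 CPM, Cxcl1 at 599 and 323 CPM against 1389 and 767 CPM, and Cxcl12 at 313 and 261 CPM against 629.7 and 647 CPM. Of 21 immediate-early and heat shock genes, which respond to handling, 0 passed 2-fold, and the median log2 ratio was -0.34 and -0.44.

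**Figure D4:**
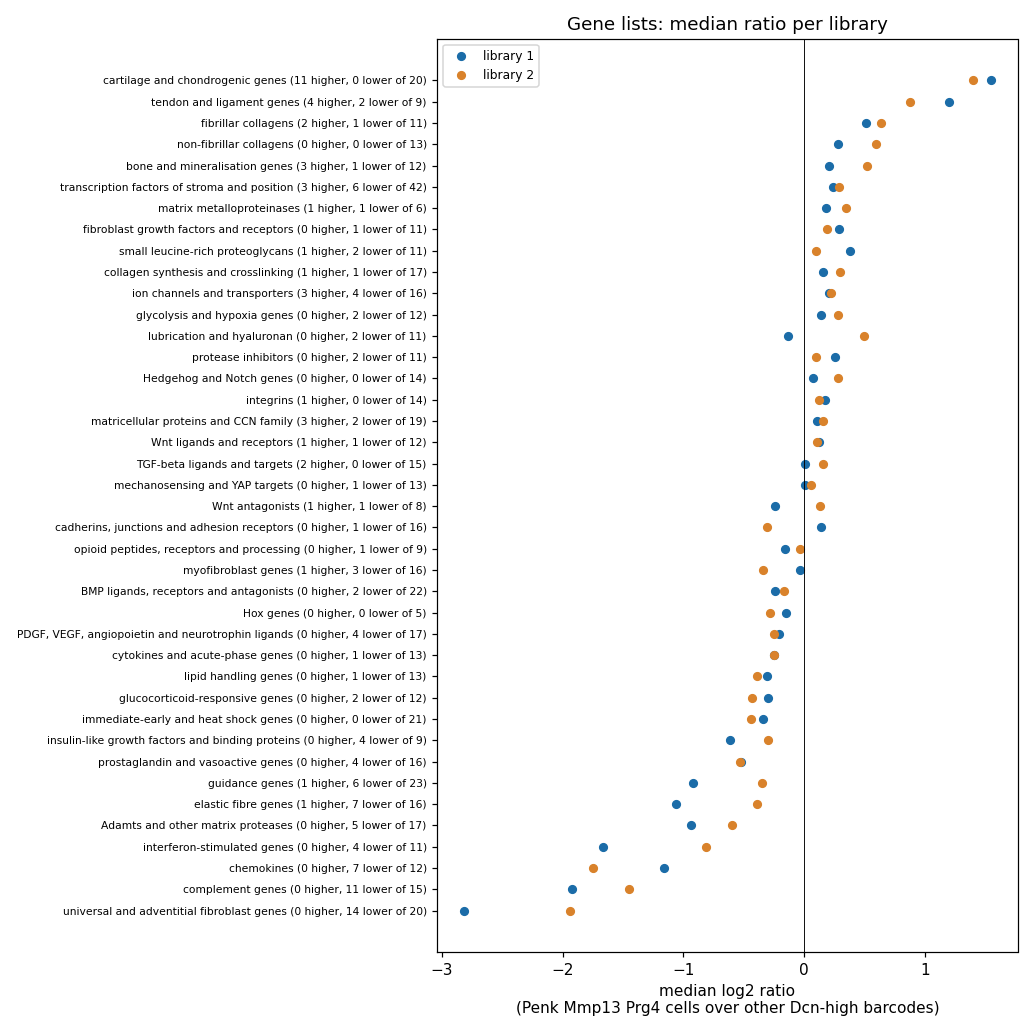
Median log2 ratio of CPM, members over other Dcn-high barcodes (horizontal axis), of the gene lists with 5 or more measured genes (vertical axis), 1 point per library, with the number of genes 2-fold higher and lower in both libraries beside each name. The lists of cell type markers are not drawn, and among the lists drawn cartilage genes lie farthest to the right, at 1.55 and 1.4, and adventitial genes farthest to the left, at -2.82 and -1.94.

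Markers of other cell types were read in the same way. Fibroblast markers were present, with their summed level at 26002 and 27617 CPM in members, against 22089 and 20733 CPM in the other Dcn-high barcodes, although Dpt, Serpinf1 and Fbln1 of the 8 were lower. Summed macrophage markers stood at 188 and 203 CPM in members, against 669 and 626 CPM in the other Dcn-high barcodes and 2289.8 and 1927 CPM in free RNA. Contractile smooth muscle markers were at 956 and 2696 CPM in members, against 3324 and 5569 CPM, and 9664 and 13397 CPM in free RNA. Endothelial markers were at 339.9 and 100.1 CPM in members, against 483 and 209 CPM. No gene of these 3 lists stood above its free RNA level in members, in either library. Mesothelial markers were at 2.63 and 2.31 CPM, with 7 and 5 of 8 at 0.

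Chondrocyte markers behaved differently, at 2411 and 6827 CPM in members, against 577 and 2984 CPM in the other Dcn-high barcodes and 299.9 and 2869.8 CPM in free RNA. Of 9 such markers, 8 and 9 stood above free RNA in members, and Matn3 was at 0 in library 1. After thinning to 1500 UMIs, the median log2 ratio of these markers in library 2 was -0.35. A set of 3 or more chondrocyte markers was found in 39.1% and 37.3% of members, against 5.15% and 15.5% of the other Dcn-high barcodes. These shares were not matched for depth, at a median of 17792 and 3247 UMIs in members, against 2793 and 2301 UMIs. At least 1 class among macrophage, endothelial, contractile smooth muscle, chondrocyte, Schwann, T cell, neutrophil, mesothelial and erythroid reached 3 or more markers in 81.5% and 83.1% of members. Contractile smooth muscle was the largest class, in 51.0% and 69.6% of members, against 54.6% and 70.5% of the other Dcn-high barcodes. A share over all classes was not computed for the other Dcn-high barcodes. No doublet caller was run, and the part of droplets with more than 1 cell in these values was not tested.

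Type II collagen varied strongly among members. Col2a1 had no UMI in 45.0% and 34.9% of members, its median was 0.685 and 3.92 UMIs per 10000, and its highest value was 245 and 511. A level of 100 or more per 10000 was reached by 5.96% and 6.35% of members, and 72.2% and 65.3% stayed under 10. The comparison was repeated on members and other Dcn-high barcodes under 10 per 10000 only, where 135 of 8846 genes (1.53%) were higher and 339 (3.83%) lower in members, and 18 of the 20 named genes stayed 2-fold higher. Sox9 stood at 231 and 292 CPM in these members, against 99.2 and 117 CPM in the other Dcn-high barcodes with low Col2a1. Ank stood at 572 and 484 CPM, against 104 and 148 CPM. Comp did not reach 2-fold in this reading, at 345 and 413 CPM against 216 and 249.9 CPM, and reached 3692 and 1780 CPM in the members with Col2a1 at 100 or more per 10000.

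**Figure D5:**
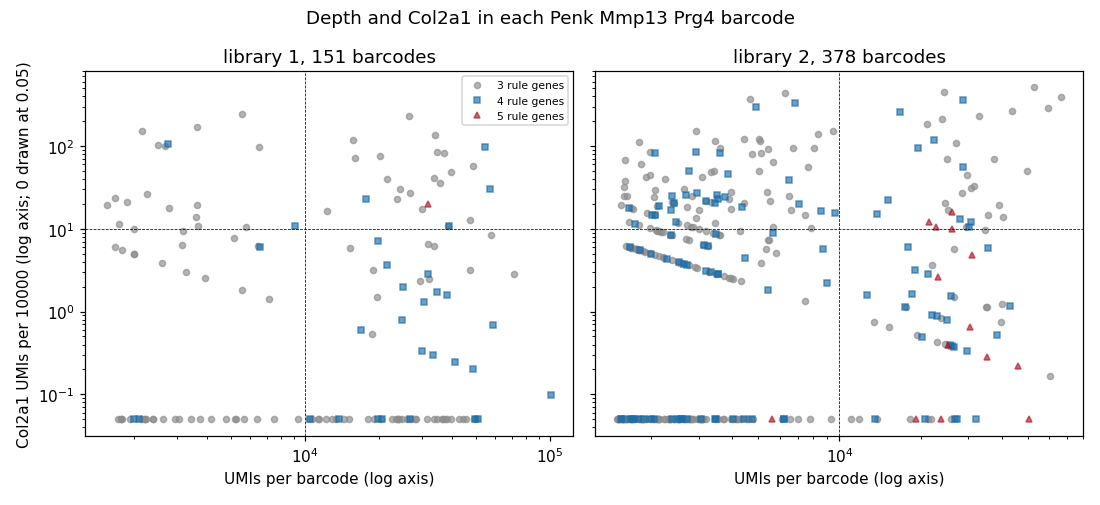
UMIs per member (horizontal log axes) and Col2a1 UMIs per 10000 (vertical log axis, 0 drawn at 0.05), 1 point per member, for 151 members of library 1 and 378 of library 2, with the marker showing 3, 4 or 5 rule genes. Dashed lines mark 10000 UMIs and 10 Col2a1 UMIs per 10000, and deep and shallow members lie on both sides of the Col2a1 line.

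Barcodes outside the members with Col2a1 at 100 or more per 10000 are called Col2a1-high and number 49 and 662. Against them, 214 of 8582 genes (2.49%) were higher and 200 (2.33%) lower in members. The median log2 ratio of all genes was 0.22 and 0.13 here, so small differences are read relative to that. Of the 22 measured cartilage genes, 13 were lower in members and 0 higher, with Acan at 440.3 and 743 CPM in members, against 2617 and 2770.1 CPM. Col2a1 itself was left out of these counts because it picks the Col2a1-high barcodes. Cartilage genes that vary with Col2a1 can be higher in those barcodes through that choice, and this was not tested. Sox9, at 404 and 478 CPM in members, against 719.7 and 928 CPM, did not pass 2-fold, at a ratio of 0.561 and 0.515. Ecrg4 stood at 2057 and 1661 CPM in members, against 3504 and 1282 CPM, and Cytl1 at 3642 and 587 CPM against 3271 and 532 CPM. Of the 20 named genes, 2 were higher in members than in Col2a1-high barcodes (Cthrc1 and Emb) and 3 lower (Sdk2, Fam180a and Trpv4). Cthrc1 stood at 398 and 346 CPM in members, against 20.5 and 138 CPM.

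Compared with each of the 3 other fibroblast sets, the members had more genes higher than against the other Dcn-high barcodes. They also had more genes lower, except against the Saa3 set. These sets hold fewer UMIs than the other Dcn-high barcodes, so the counts are not alike. Against 910 and 1292 barcodes of the Inmt set, 500 of 8872 genes (5.64%) were higher and 619 (6.98%) lower. Against 259 and 157 barcodes of the Opcml set, 562 of 8715 genes (6.45%) were higher and 582 (6.68%) lower, and against 267 and 355 barcodes of the Saa3 set, 317 of 8704 genes (3.64%) were higher and 348 (4.0%) lower. Of the 20 named genes, all were 2-fold higher than in the Inmt set and in the Opcml set, and 17 were so than in the Saa3 set. All 15 genes named as lower were 2-fold lower than in each of the 3 sets.

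Ecrg4 showed the steps between these sets, at 2057 and 1661 CPM in members, against 581 and 385 CPM in the Saa3 set, 110.4 and 144 CPM in the Inmt set, and 77.4 and 48.6 CPM in the Opcml set. Fmod, which encodes fibromodulin, separated the sets otherwise, at 510.3 and 727 CPM in members, against 398 and 635 CPM in the Inmt set, but 143 and 184 CPM in the Saa3 set and 12 and 34 CPM in the Opcml set. Mmp3 stood at 2198 and 2905 CPM in members, against 2125 and 3462 CPM in the Saa3 set, so it did not separate these 2. Complement C3 was highest in the Saa3 set, at 623 and 618 CPM in members, against 3429 and 3359 CPM there.

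A check across libraries read genes chosen in 1 library in the cells of the other. The 20 genes outside the rule with the highest ratio in library 1 were summed in each barcode of library 2, where the median was 33.1 UMIs per 10000 in members and 6.6 in the other Dcn-high barcodes. The 20 genes chosen in library 2, read in library 1, gave medians of 67.0 in members and 13.2 in the other Dcn-high barcodes. Raw UMIs are summed, so abundant genes weigh most and the score does not speak for each gene. Most of those chosen in library 2 also reached 2-fold in library 1, Ecrg4 and Cytl1 among them, while Lcn2, Serpina3n and Chil1 did not. In deep barcodes the medians were 38.6 in members against 3.72 in library 2, and 71.5 against 12.7 in library 1. The groups overlapped, since 7.14% of members in library 2 and 32.5% in library 1 lay above the 95th percentile of the other Dcn-high barcodes. Over Dcn-high barcodes with 0, 1, 2, 3, 4 and 5 rule genes the median in library 2 was 5.77, 7.51, 16.2, 28.2, 36.2 and 32.5. In library 1 it was 10.5, 15.3, 25.1, 49.9, 65.8 and 86.1, the last from 1 barcode.

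Among the 92 and 91 deep members, some genes varied together. Pearson's r over barcodes, on the natural log of 1 plus UMIs per 10000, was 0.64 and 0.78 for Col2a1 with Acan, 0.67 and 0.61 for Col2a1 with Fmod, and 0.62 and 0.73 for Acan with Fmod. Ecrg4 went with Acan at 0.69 and 0.44. Values that involve a rule gene are left out, since requiring 3 of the 5 genes shapes how they vary among members. These cells share a library and the scaling to their own depth, so the values are descriptions. The deep members held Penk at a median of 1.62 and 1.04, Prg4 at 2.99 and 20.0, and Spp1 at 49.7 and 74.1 UMIs per 10000.

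The libraries were also set side by side within members, which describes 2 suspensions and not the treatment. Of 8579 genes, 116 (1.35%) were 2-fold or more higher and 209 (2.44%) 2-fold or more lower in library 1 than in library 2, against 48 of 8906 (0.539%) and 68 (0.764%) in the other Dcn-high barcodes, which are many more cells. Of the rule genes, the summed level of Penk was higher in library 1, at 1761 against 829 CPM, a ratio of 2.12 (2.03 to 2.22) that was 2.02 in deep members and 1.01 in the other Dcn-high barcodes. Over all members the median went the other way, at 2.91 against 5.45 Penk UMIs per 10000, and the 90th percentile was 102 against 32.6. Among deep members the median did not go the other way, at 1.62 against 1.04, and the 90th percentile was 29.1 against 27.4. Prg4 was lower in library 1, at 816 against 2265 CPM, a ratio of 0.36 that was 0.323 in deep members and 0.837 in the other Dcn-high barcodes. Free RNA gave 0.688 for Penk and 0.51 for Prg4. Mmp13 differed little, at a ratio of 0.961. Within deep members, 146 of 8517 genes (1.71%) were higher and 198 (2.32%) lower in library 1. The part of single cells in these values was not tested, and 1 member held 21.1% of the Penk UMIs of library 1.

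Cytl1 was also higher in library 1, at 3642 against 587 CPM, a ratio of 6.2 in members, 5.56 in deep members, 3.61 in the other Dcn-high barcodes and 2.89 in free RNA. Ptn, which encodes the growth factor pleiotrophin, stood at 86.7 against 13.8 CPM, a ratio of 6.26 in members and 5.55 in free RNA, and its log2 ratio was -1.15 after thinning. The Wnt-binding protein gene Sfrp2 stood at 290.3 against 89.4 CPM, and the chemokine gene Cxcl2 at 303 against 65.2 CPM. For Sfrp2 the ratio was 3.25 in members but 0.842 in the other Dcn-high barcodes and 0.863 in free RNA. Cst6, Cilp2, Fkbp5, Ptprb, Nos2 and Krt16 completed the 10, and for Krt16 and Nos2 the direction turned under other ways of picking members.

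On the other side, Slpi stood at 78.2 in library 1 against 409.7 CPM in library 2, which is 5.24-fold lower in library 1, 6.33-fold in deep members and 1.06-fold in free RNA. Ibsp, which encodes bone sialoprotein, stood at 5.58 against 131 CPM and was found in only 1.99% and 8.73% of members, with 1 member holding 35.2% of the UMIs of library 2. Tbx20, a cardiac transcription factor, stood at 12.8 against 52.5 CPM and Adamts6 at 26.9 against 102 CPM. Apod, Cnn1, Dmd, Ramp1, Myh11 and Col9a2 completed the 10. Without barcodes of mixed class, the log2 ratio of library 1 over library 2 was not negative for 4 of the 10, at 0.29 for Cnn1, 0.29 for Col9a2, 0.83 for Dmd and 0.0 for Ibsp. Cnn1 is in the contractile smooth muscle list and Col9a2 in the chondrocyte list, so that setting selects on these genes themselves. Myh11, a smooth muscle myosin gene, was 3.67-fold lower in library 1 among members, 1.86-fold among deep members and 1.91-fold in free RNA, beside a median depth of 17792 against 3247 UMIs. Col2a1 stood at 1604 against 5108 CPM, 3.18-fold lower in library 1 in members, 6.65-fold in the other Dcn-high barcodes and 13.4-fold in free RNA, so the fold was smaller in members than in the other Dcn-high barcodes.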

How the data were processed

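Per the labels' protocols, cDNA of mouse aortic cells was made with Chromium 3' v3 chemistry in 2 samples. The authors deposited 1 unfiltered table of UMI counts, not normalized, of 32285 genes in 2828620 barcodes. Per the file headers it came out of Cell Ranger 6.0.1, while bcl2fastq, Seurat and the build mm10 stand in the submitters' processing notes. The sources used here do not give the annotation. There were 110257209 UMIs in library 1 and 124266676 in library 2. The depth and mitochondrial filters kept 11833 and 17357 barcodes at median depths of 3231 and 2438 UMIs, the mitochondrial limit removed 46 and 100, and 84 barcode sequences were kept in both libraries. Gene positions come from GENCODE vM21 on GRCm38, matched by identifier for 852 of 852 genes printed, and 78 genes share a symbol with another.

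UMIs were summed per gene, group and library and scaled to CPM. Ratios of CPM have exact Poisson intervals and shares exact binomial (Clopper-Pearson) intervals at 95%, and a ratio with a zero count used 3 counts as its floor. A gene was measured at a mean of 10 CPM or more over the groups compared, and called at 2-fold or more the same way in both libraries. With 1 library per sample, unassigned to samples, no p-value was computed. The calling step was tested on simulated data. No doublet caller and no clustering were run, and cell types were read from marker lists.

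Named genes were the 20 highest and 15 lowest by the smaller of the 2 libraries' ratios among genes at 50 CPM or more, the 10 with the largest ratio each way between libraries, and up to 6 genes per list. Values for a few other genes were chosen after they were seen. The members, the lists and the alternatives were chosen with earlier results of these data known. Alternatives changed the depth minimum, the number of rule genes, the limits on other sets, thinning, mixed barcodes, the level minimum, the weighting, the scaling, a constant of 5 CPM and the group compared against. Python 3.11.15, numpy 2.4.6, scipy 1.17.1, pandas 2.3.3 and matplotlib 3.10.9 were used.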

Additional observations from a re-analysis of the deposited data

Results flagged for a closer look

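In 6 genes the ratio of members to other Dcn-high barcodes passed 2-fold upward in 1 library and downward in the other, and these differences were not tested. Mki67, a proliferation marker, had a log2 ratio of 1.09 in library 1, at 21.3 CPM in members against 10.0 CPM, and -3.0 in library 2, at 1.44 CPM in members against 11.5 CPM. Top2a, a topoisomerase of dividing cells, had 1.07 and -4.51, at 26.9 and 0.577 CPM in members against 12.9 and 13.1 CPM. Diaph3, a formin, had 1.36 and -1.16, at 27.3 and 4.9 CPM in members against 10.6 and 11 CPM. In each of these 3 a single member held most UMIs of library 1, namely 52 of 65 for Mki67, 72 of 82 for Top2a and 63 of 83 for Diaph3.

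Esm1, an endothelial proteoglycan gene, had log2 ratios of 1.03 and -3.5, at 19.7 and 1.73 CPM in members against 9.65 and 19.6 CPM, with 22 of 60 UMIs of library 1 in 1 member. Col10a1, the collagen of hypertrophic cartilage, had -1.46 and 1.3, at 0.985 and 47.9 CPM in members against 2.7 and 19.4 CPM, with 139 of 166 UMIs of library 2 in 1 member. Itm2a had -1.19 and 1.1, at 16.7 and 48.8 CPM in members against 38.2 and 22.8 CPM, with at most 73 of 169 UMIs in 1 member.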

How the results depend on the processing

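No paired analysis was possible because each group has 1 sample and no library is tied to a sample. The share of members among Dcn-high barcodes (2.71% and 4.22%) was 4.57% and 7.04% from 3000 UMIs, 8.62% and 12.3% from 10000 UMIs, 0.575% and 1.31% with 4 or more rule genes, 1.89% and 2.78% with at most 1 gene of each other set, 0.484% and 2.1% after thinning to 1500 UMIs, 1.68% and 3.69% without barcodes of mixed class (3 or more genes of another class) and 2.09% and 3.44% under 10 Col2a1 UMIs per 10000. The 150 higher genes became 261 in library 1 alone and 236 in library 2 alone, 364 without mixed barcodes, 66 from 50 CPM, 541 with no minimum, 98 with 5 CPM added and 414 against the 3 other sets. The 368 lower genes became 574 in library 1 alone, 133 from 50 CPM, 1050 with no minimum and 211 with barcodes weighed equally. Between libraries, the 116 genes higher in library 1 became 312 with 4 or more rule genes, 482 after thinning, 498 without mixed barcodes, 28 from 50 CPM and 1009 with no minimum. The 209 lower ones became 382, 1096, 775, 45 and 1436 in the same order, 330 with at most 1 gene of another set, 435 weighed equally and 112 with 5 CPM added. Thinning left 28 and 198 members and leaving out mixed barcodes 28 and 64, so those counts rest on few UMIs.

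Of the values for single genes and lists, 1625 were labelled the same, 768 moved and 15 turned. Only values that reached 2-fold in the main reading could be labelled turned. A smaller value that changed sign was labelled moved, or the same for a list median that changed little. The 15 are therefore not a count of all changes of sign. Without mixed barcodes the log2 ratio of library 1 over library 2 in members was 0.29 for Cnn1, 0.29 for Col9a2, 0.83 for Dmd, 0.0 for Ibsp and -0.2 for Nos2, and that of members over other Dcn-high barcodes in library 2 was -0.41 for Comp and -0.7 for Fam180a. After thinning it was 0.43 for Col9a2, 0.0 for Krt16, -1.22 for Nos2 and -1.15 for Ptn between libraries, and in library 2 it was -0.2 for Fam180a and -0.35 for the median of the chondrocyte markers. Krt16 between libraries was -1.85 with 4 or more rule genes and -0.13 under 10 Col2a1 UMIs per 10000. The causes were not tested, and leaving out mixed barcodes selects on Cnn1 and Col9a2, which are themselves class markers. The settings on deep barcodes, on low Col2a1 and on each library alone were added after seeing the data.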

Other observations

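Other lists are read against 1.70% of all genes higher and 4.17% lower. Of 23 axon guidance genes, Unc5b was higher, at 78.2 and 102 CPM in members, against 37.1 and 44.5 CPM in the other Dcn-high barcodes, and 6 were lower, Slit3 among them at 17.4 and 37.8 CPM against 271 and 203 CPM. The other 5 were Sema3c, Sema3d, Ntn1, Ntn4 and Epha3. Of 11 interferon-stimulated genes 4 were lower (Ifi27l2a, Bst2, Gbp2 and Cxcl10) and 0 higher. Of 16 prostaglandin and vasoactive genes 4 were lower (Edn1, Npr1, Adm and Gucy1b1) and 0 higher. Of 16 myofibroblast genes Cthrc1 was higher and Acta2, Tagln and Myl9 were lower. Acta2 stood at 473 and 1305 CPM in members, against 1639 and 2706 CPM, beside 4886 and 7234 CPM in free RNA. Of 5 measured Hox genes and of 14 Hedgehog and Notch genes, 0 passed 2-fold in both libraries.

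The acute-phase genes Lcn2 and Serpina3n were higher in library 2 only by the 2-fold limit. Lcn2, a siderophore-binding lipocalin, stood at 1142 and 2575 CPM in members, against 852 and 752 CPM in the other Dcn-high barcodes, a ratio of 1.34 and 3.42. Serpina3n, a serine protease inhibitor, stood at 709.6 and 1899 CPM in members, against 685 and 599 CPM, a ratio of 1.04 and 3.17. Both were found in 89.4% of the members of library 2. Of 5 measured pericyte markers, Cspg4 was higher, at 226 and 305 CPM in members, against 81 and 134 CPM, and Kcnj8 and Abcc9 were lower, with a median log2 ratio of -0.9 and -0.99 over the 5.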
